A study of Homo sapiens with 6 samples.

Results

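The genes described here encode the silencing machinery that works behind KRAB zinc finger proteins: the corepressor TRIM28, the histone methyltransferase SETDB1 with its partner ATF7IP, the heterochromatin protein 1 (HP1) genes CBX1, CBX3 and CBX5, and the HUSH complex genes TASOR, MPHOSPH8 and PPHLN1 with the HUSH effector MORC2. They were chosen by name. All 10 were present among the 50868 genes of the deposited table, and all 10 passed the filter on low counts among 14250 tested genes. The cells were KYSE-150, an established line from a squamous carcinoma of the oesophagus, in RPMI medium with fetal bovine serum. There were 2 groups of 3 libraries, a control titled nc and a group whose label reads ZNF514 knockout with siZNF514 in brackets, called siZNF514 here. The sources used here do not say what nc cells received or whether the replicates were separate cultures, so the spread behind each p-value may be technical.

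As background, KRAB zinc finger proteins bind DNA, often within transposable elements, and hold TRIM28 there. TRIM28 brings in SETDB1, which trimethylates lysine 9 of histone H3 (H3K9), and HP1 proteins read that mark through a chromodomain and form dimers through a chromoshadow domain. The HUSH complex also reads the mark, through MPHOSPH8, and silences long, intron-poor and newly integrated sequences with SETDB1 and the ATPase MORC2. ZNF514 belongs to the zinc finger genes, many of whose products carry a KRAB domain.

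The machinery did not move in 1 direction in siZNF514. The corepressor gene TRIM28 and ATF7IP did not pass the test, SETDB1 rose, the HP1 genes split with CBX1 higher and CBX3 and CBX5 lower, and TASOR, MPHOSPH8 and MORC2 fell. The largest change was in TASOR, which fell to 58.9% of its nc level. Of the 10 genes, 2 rose, 5 fell and 3 did not pass the threshold of 0.05 on p-values from edgeR (quasi-likelihood F test), adjusted by Benjamini-Hochberg over all tested genes. Across all tested genes the same test called 50.6%, with 25.5% higher and 25.1% lower, so a share of 70% among 10 genes stands against a high background. Their median log2 fold change was -0.15, against -0.0092 for all tested genes. The 2 groups did not overlap for 8 of the 10, as for 60.3% of all tested genes. None of the 10 changed by 2-fold or more, while 9.28% of all tested genes both passed the threshold and changed by at least 2-fold. Levels are given as CPM, read counts scaled to a common library total and corrected by TMM factors, and the plot of CPM by library shows every value.

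**Figure D1:**
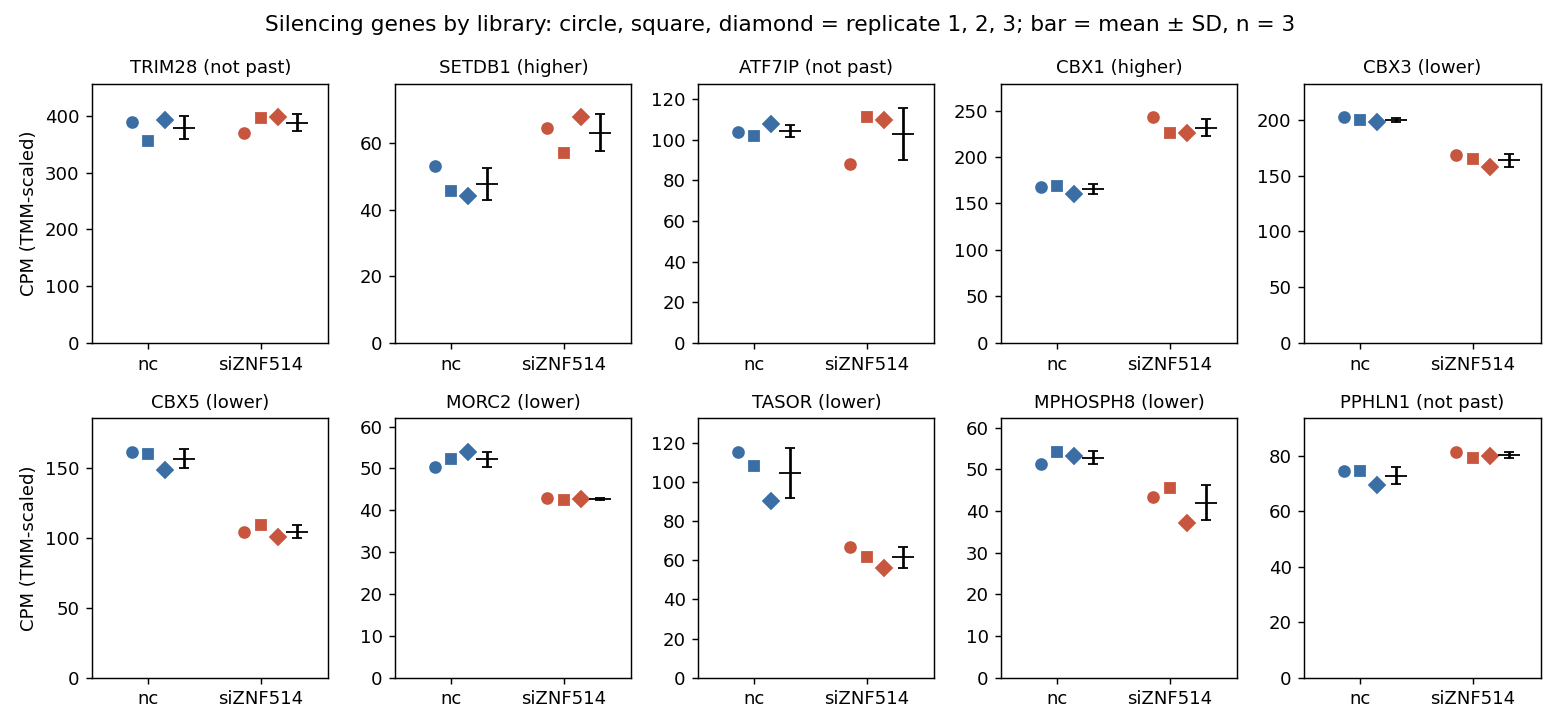
Normalised level of each gene (y axis, CPM scaled by TMM factors, from 0) in the 3 nc libraries (blue) and 3 siZNF514 libraries (red), with the mean and SD beside each group. The groups are apart for CBX1, CBX3, CBX5, TASOR, MORC2, MPHOSPH8, SETDB1 and PPHLN1, and overlap for TRIM28 and ATF7IP.

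The libraries held 12175259 to 13696180 counts in nc and 13262363 to 14318909 in siZNF514, and 1 count was worth at most 0.0789 CPM. ZNF514 itself, at 18.6, 19.1 and 20.6 CPM in nc, was at 5.02, 6.29 and 4.62 CPM in siZNF514, 27.3% of the nc level (edgeR quasi-likelihood adjusted p = 5.77e-05; exact two-sided permutation p = 0.1, the smallest that 3 against 3 libraries allow). Epithelial markers were present in both groups. Their FPKM (the deposited values, scaled by gene length and library total) was summed over 9 genes. The sum was 741 to 779 in nc and 762 to 830 in siZNF514. Of the 9 genes, 3 rose, 2 fell and 4 did not pass. Among the 4 with the smallest p, KRT18 (log2 fold change 0.77, SE 0.03) and EPCAM (0.41, SE 0.04) rose. KRT14 (-1.23, SE 0.14) and KRT5 (-0.52, SE 0.07) fell. These 4 had edgeR adjusted p-values of 8.64e-06 to 0.000842. Fibroblast markers summed to 1.70 FPKM in siZNF514 replicate 3, which stood apart with 112 COL3A1 and 49 LYZ counts against none in the other siZNF514 libraries, and to at most 0.543 FPKM elsewhere. Without that library the same numbers of members, 2 and 5, rose and fell. Endothelial markers summed to at most 0.295 FPKM in any library. PTPRC, carried by all leukocytes, had 7 counts over the 6 libraries, 5 of them in siZNF514 replicate 3, while CD68, which many cells express, was the one tested gene of the leukocyte list, made up most of its summed 12.3 to 15.1 FPKM in nc and 10.0 to 12.2 FPKM in siZNF514, and did not pass. In bulk RNA, fewer cells of a kind and less RNA per cell cannot be told apart.

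TRIM28 (ENSG00000130726; GRCh38 chromosome 19, 58544091 to 58550722, plus strand) encodes the scaffold that KRAB domains bind, and is also known as KAP1. Its level was 389, 355 and 392 CPM in nc and 370.2, 396 and 397 CPM in siZNF514. The groups overlapped, and the lowest library was nc replicate 2. The log2 fold change was 0.03 (SE 0.05, 95% interval -0.09 to 0.15, edgeR adjusted p = 0.608), and its sign turned with total counts alone in place of TMM factors (-0.09) and without nc replicate 2 (-0.0084). As a fold the interval ran from 0.942 to 1.11. The 3 tested genes whose pattern over the 6 libraries was nearest to that of TRIM28, by Euclidean distance of centred log2 CPM, were NCL, TEX30 and MED4, at distances of 0.0403, 0.0553 and 0.0579.

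SETDB1 (ENSG00000143379; chromosome 1, 150926263 to 150964744, plus strand) is the methyltransferase of the pathway. Its level was 53.1, 45.6 and 44.1 CPM in nc and 64.6, 56.9 and 67.6 CPM in siZNF514, so that every siZNF514 library lay above every nc library. The mean was 47.6 ± 4.82 CPM (SD, n = 3) in nc and 63.0 ± 5.55 CPM in siZNF514, and SETDB1 rose (log2 fold change 0.41, SE 0.10, 95% interval 0.18 to 0.63, edgeR adjusted p = 0.0108). This call was lost in limma-trend on log2(FPKM + 1), where the log2 fold change was 0.23 and the adjusted p 0.0648. The 3' end of SETDB1 overlaps CERS2, a ceramide synthase gene on the other strand, by 4162 bases. CERS2 fell, at 153, 86.2 and 153 CPM in nc and 57.9, 61.3 and 64.1 CPM in siZNF514 (-1.10, SE 0.21, edgeR adjusted p = 0.00433), the direction opposite to that of SETDB1.

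ATF7IP (ENSG00000171681; chromosome 12, 14365632 to 14502935, plus strand) encodes the partner that keeps SETDB1 protein in the nucleus and protects it from degradation. Its level was 104, 102 and 108 CPM in nc and 88.0, 111 and 109 CPM in siZNF514. The groups overlapped, with siZNF514 replicate 1 below the other 5 libraries. ATF7IP did not pass (log2 fold change -0.02, SE 0.09, 95% interval -0.24 to 0.19, edgeR adjusted p = 0.859), and its sign turned without siZNF514 replicate 1 (0.089). The log2 difference of SETDB1 over ATF7IP was -1.13 ± 0.160 in nc and -0.70 ± 0.258 in siZNF514, higher by 0.43. It had an exact permutation p of 0.1, the smallest possible, and the groups did not overlap.

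The HP1 genes encode near relatives that bind the same histone mark, CBX5 for HP1 alpha, CBX1 for HP1 beta and CBX3 for HP1 gamma. CBX1 rose while CBX3 and CBX5 fell. Windows around their starts and that of TASOR are shown first, for the HP1 genes because they moved in opposite directions and for TASOR because it changed most among the 10. Each runs from 250 bases before to 30 bases after the RefSeq start nearest to the start in the deposited table, 5′ to 3′ on the gene's strand (GRCh38.p14). That start lay 335 bases from the deposited one for CBX1, 281 for CBX3 and 11 for CBX5, and was the same for TASOR. They are chr17:48101157-48101436 (minus) for CBX1, chr7:26201193-26201472 (plus) for CBX3, chr12:54280093-54280372 (minus) for CBX5 and chr3:56683208-56683487 (minus) for TASOR. Capitals mark TTTGGCGC or TTTGGCGG, forms of the E2F site, and GCGCATGC, a form of the NRF1 site, on either strand.
CBX1: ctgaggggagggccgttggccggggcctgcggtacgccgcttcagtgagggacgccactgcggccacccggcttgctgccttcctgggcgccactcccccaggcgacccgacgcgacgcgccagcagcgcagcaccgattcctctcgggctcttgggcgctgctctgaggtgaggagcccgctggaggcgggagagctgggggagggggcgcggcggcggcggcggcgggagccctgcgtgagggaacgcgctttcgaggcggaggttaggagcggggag
CBX3: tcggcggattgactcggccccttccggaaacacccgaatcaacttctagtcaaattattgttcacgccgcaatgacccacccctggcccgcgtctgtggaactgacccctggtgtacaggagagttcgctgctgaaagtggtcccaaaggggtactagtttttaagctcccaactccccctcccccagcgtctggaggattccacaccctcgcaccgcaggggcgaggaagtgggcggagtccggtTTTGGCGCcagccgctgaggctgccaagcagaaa
CBX5: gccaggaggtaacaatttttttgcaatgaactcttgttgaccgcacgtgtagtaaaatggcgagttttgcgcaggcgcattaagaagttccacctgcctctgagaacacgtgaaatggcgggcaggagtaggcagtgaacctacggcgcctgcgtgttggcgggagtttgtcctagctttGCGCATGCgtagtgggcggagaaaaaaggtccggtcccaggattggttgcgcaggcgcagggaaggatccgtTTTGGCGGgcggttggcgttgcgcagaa
TASOR: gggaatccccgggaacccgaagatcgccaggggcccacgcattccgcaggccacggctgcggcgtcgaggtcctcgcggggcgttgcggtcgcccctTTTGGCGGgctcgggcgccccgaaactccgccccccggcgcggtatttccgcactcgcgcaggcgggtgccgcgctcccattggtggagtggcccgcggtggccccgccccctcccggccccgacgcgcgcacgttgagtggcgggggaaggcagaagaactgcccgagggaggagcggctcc
These letters were chosen after the sequences had been read. An E2F form was found in the windows of CBX3, CBX5 and TASOR. It was not found in those of MORC2 and MPHOSPH8, which also fell, nor in those of CBX1, SETDB1 and ATF7IP. The PPHLN1 entry starts 87720 bases from the deposited start and is left out here, and that of MORC2 starts 476 bases away. The E2F form stood at base -4 in CBX3, at base 3 in CBX5 and at base -153 in TASOR, counted from the start. HNRNPA1, on the other strand, starts inside the CBX5 window. The CBX3 window lies within HNRNPA2B1, also on the other strand. These neighbours did not pass the edgeR test (log2 fold change -0.03 and 0.17). Which gene, if any, these strings bear on was not tested. All 35116 full-length RefSeq windows, which are longer, were cut to the same 280 bases. Of these, 1.21% held an E2F form and 2.98% the NRF1 form, which was found in the CBX5 window. E2F factors drive genes of S phase, and NRF1 is an activator of many housekeeping promoters. GGGCGG, a form of the SP1 site, was found in the windows of CBX3, CBX5, TASOR, MORC2, MPHOSPH8 and ATF7IP. It was in 44.09% of all windows. CCAAT was found in those of CBX5, TASOR, MORC2, MPHOSPH8 and ATF7IP, and in 33.65% of all windows. Neither was found in those of CBX1 and SETDB1. As the letters were chosen after reading, the shares over all windows are no test, and they were not matched for G and C. A match is a string of letters and does not show that a factor binds there.

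CBX1 (ENSG00000108468; chromosome 17, 48070052 to 48101521, minus strand) was at 168, 169 and 159.9 CPM in nc and 243, 226 and 226 CPM in siZNF514. All siZNF514 libraries were above all nc libraries, and the group means were 166 ± 4.93 and 232 ± 9.48 CPM (SD, n = 3). CBX1 rose with a log2 fold change of 0.48 (SE 0.05, 95% interval 0.37 to 0.59, edgeR adjusted p = 0.000194). Its window matched none of the 8 motifs searched.

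CBX5 (ENSG00000094916; chromosome 12, 54230940 to 54280133, minus strand) was at 162, 160.2 and 149 CPM in nc and 104, 109 and 100.5 CPM in siZNF514. The groups were far apart relative to their spread, with means of 157 ± 6.96 and 105 ± 4.52 CPM (SD, n = 3). CBX5 fell to 66.8% of its nc level (log2 fold change -0.58, SE 0.05, 95% interval -0.71 to -0.46, edgeR adjusted p = 0.000164). The RNA-binding protein gene HNRNPA1 starts 60 bases away in the other direction. It did not pass (-0.03, SE 0.14, edgeR adjusted p = 0.867), with its libraries between 308 and 396 CPM in nc and between 311 and 423 CPM in siZNF514.

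CBX3 (ENSG00000122565; chromosome 7, 26201162 to 26213356, plus strand) was at 202, 199.8 and 198 CPM in nc and 168, 165 and 157 CPM in siZNF514. The nc libraries were close to each other (SD 2.06 CPM) and all above siZNF514. CBX3 fell to 81.9% of its nc level (log2 fold change -0.29, SE 0.04, 95% interval -0.39 to -0.19, edgeR adjusted p = 0.00122). Its neighbour HNRNPA2B1, which encodes a related RNA-binding protein, starts 367 bases away on the other strand and overlaps CBX3 by 368 bases. HNRNPA2B1 did not pass (0.17, SE 0.07, edgeR adjusted p = 0.0777), but did without nc replicate 1 (0.27, adjusted p = 0.00127), in the DESeq2 Wald test (0.17, adjusted p = 0.0108) and with no filter beyond a count above 0 (0.19, adjusted p = 0.0492). Pseudogenes named after CBX3 held 288 counts against 14412 for CBX3 itself, and those named after CBX1 held 10 against 15724. How reads that match several copies were assigned was not tested.

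The balance of the HP1 genes therefore differed between groups in every library. On the deposited FPKM scale CBX1 made up 54.4% ± 0.372 of the summed HP1 transcripts in nc and 68.1% ± 0.773 in siZNF514 (SD, n = 3). CBX3 went from 34.3% ± 0.562 to 25.2% ± 0.440, and CBX5 from 11.2% ± 0.233 to 6.73% ± 0.341. These levels depend on the length used. On counts with no length CBX1 went from 31.7% to 46.3%, CBX3 from 38.3% to 32.7% and CBX5 from 30.02% to 20.9%. Per principal transcript length CBX3 was the largest in nc, at 53.4% against 38.9% for CBX1 and 7.73% for CBX5, and CBX1 the largest in siZNF514, at 52.6% against 42.4% and 5.00%. The groups did not overlap for any of the 3 shares on any of these scales, each with an exact permutation p of 0.1, the smallest possible. The sum of the 3 genes was 85.1 ± 2.20 FPKM in nc and 87.1 ± 3.46 FPKM in siZNF514 (exact permutation p = 0.6), and 522 ± 13.6 and 500.0 ± 15.6 on the CPM scale (exact permutation p = 0.2), with libraries of the groups overlapping on both. Pair by pair, the log2 difference of CBX1 over CBX5 was 0.08 ± 0.024 in nc and 1.14 ± 0.089 in siZNF514. CBX1 over CBX3 went from -0.27 ± 0.033 to 0.50 ± 0.041, and CBX3 over CBX5 from 0.35 ± 0.052 to 0.64 ± 0.049. Over the 7 pairs compared within units, all exact permutation p-values were 0.1 and stayed at 0.1 after Benjamini-Hochberg adjustment, since no lower value is possible. These differences take no account of gene length, so only their shift between groups can be read. How many other gene pairs shift in this way was not computed, and singly 60.3% of all tested genes did not overlap between groups.

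**Figure D2:**
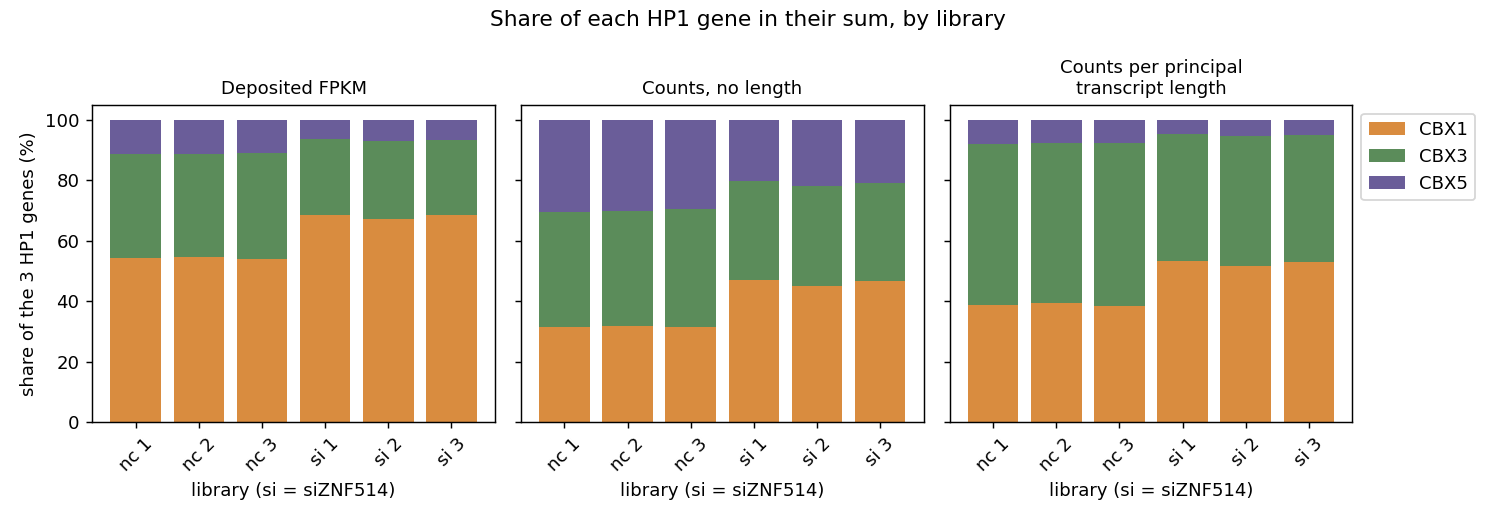
Share of CBX1, CBX3 and CBX5 in their sum (y axis, percent) for each of the 6 libraries, on the deposited FPKM scale, on counts and on counts per length of the principal transcript. CBX1 took a larger share in all siZNF514 libraries on each scale (68.1% against 54.4% on FPKM), while the order of the genes depended on the scale.

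TASOR (ENSG00000163946; chromosome 3, 56620133 to 56683237, minus strand) is the scaffold of HUSH. Its level was 115, 108 and 90.5 CPM in nc and 66.9, 61.7 and 56.3 CPM in siZNF514. The nc libraries spread more than those of most members, with nc replicate 3 lowest, but all lay above siZNF514. TASOR fell (log2 fold change -0.76, SE 0.10, 95% interval -1.01 to -0.52, edgeR adjusted p = 0.000881). Its 3' end overlaps CCDC66, a cilium gene on the other strand, by 1686 bases. CCDC66 fell as well, from 17.5 ± 0.786 to 12.9 ± 1.54 CPM (-0.43, SE 0.11, edgeR adjusted p = 0.0152), a call lost without siZNF514 replicate 1 (adjusted p = 0.0524) or replicate 2 (adjusted p = 0.0557). At that level CCDC66 is well below TASOR, and how much reads of the overlap add to either was not tested.

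MPHOSPH8 (ENSG00000196199; chromosome 13, 19633681 to 19673459, plus strand) encodes the HUSH subunit whose chromodomain reads methylated H3K9. It was at 51.2, 54.1 and 53.2 CPM in nc and 43.5, 45.5 and 37.2 CPM in siZNF514. All siZNF514 libraries were lower, replicate 3 most. MPHOSPH8 fell to 79.6% of nc (log2 fold change -0.33, SE 0.08, 95% interval -0.53 to -0.13, edgeR adjusted p = 0.0139).

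PPHLN1 (ENSG00000134283; chromosome 12, 42238447 to 42459715, plus strand) encodes periphilin, the third HUSH core subunit. It was at 74.4, 74.6 and 69.3 CPM in nc and 81.2, 79.0 and 79.9 CPM in siZNF514. The groups did not overlap, but PPHLN1 missed the threshold (log2 fold change 0.14, SE 0.05, 95% interval 0.02 to 0.26, edgeR adjusted p = 0.0583). With total counts alone its log2 fold change was 0.01. PPHLN1 spans several other genes, of which ZCRB1 (0.08, SE 0.06) and PRICKLE1 (-0.05, SE 0.10) on the other strand did not pass. YAF2, a gene of a Polycomb complex subunit that starts 98 bases away in the other direction, rose (0.61, SE 0.19, edgeR adjusted p = 0.0304), a call lost without nc replicate 1 (adjusted p = 0.0865), nc replicate 3 (adjusted p = 0.0893), siZNF514 replicate 2 (adjusted p = 0.0890) or siZNF514 replicate 3 (adjusted p = 0.0572), with scaling by the library total (adjusted p = 0.0647), and in the 4 limma-trend fits on FPKM (adjusted p = 0.0710 to 0.0891).

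The core subunits of HUSH thus did not change alike. TASOR over PPHLN1 had a log2 difference of 0.63, 0.53 and 0.38 in the nc libraries and of -0.28, -0.36 and -0.50 in the siZNF514 libraries. CPM takes no account of gene length, so the shift between groups can be read but the sign cannot. MPHOSPH8 over PPHLN1 went from -0.46 ± 0.078 to -0.93 ± 0.154 (SD, n = 3). TASOR over MPHOSPH8 went from 0.98 ± 0.202 to 0.55 ± 0.098. Each pair was apart between groups, at an exact permutation p of 0.1, the smallest possible. Singly, 60.3% of all tested genes were apart, and the share of all gene pairs was not computed.

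**Figure D3:**
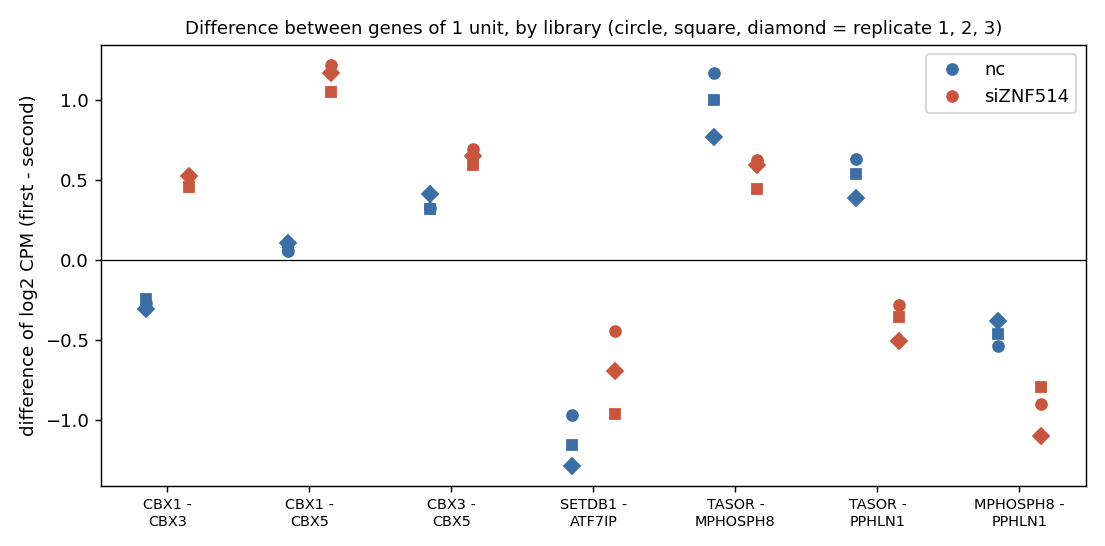
Difference of log2 CPM between 2 genes of the same unit (y axis) for each library, nc in blue and siZNF514 in red. The groups do not overlap for any of the 7 pairs, but the share of all gene pairs that do so was not computed. The mean difference goes from -0.27 to 0.50 for CBX1 and CBX3 and from 0.52 to -0.38 for TASOR and PPHLN1. Gene length is not taken into account, so the sign does not show which gene is higher.

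MORC2 (ENSG00000133422; chromosome 22, 30925130 to 30968298, minus strand) encodes the ATPase that compacts chromatin at HUSH targets. It was at 50.4, 52.3 and 53.9 CPM in nc and 42.9, 42.5 and 42.8 CPM in siZNF514. The siZNF514 libraries were nearly level with each other and below all nc libraries. MORC2 fell to 81.9% of nc (log2 fold change -0.29, SE 0.05, 95% interval -0.42 to -0.16, edgeR adjusted p = 0.00386). MORC2-AS1, which overlaps MORC2 on the other strand by 7320 bases, had no count in any library.

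**Figure D4:**
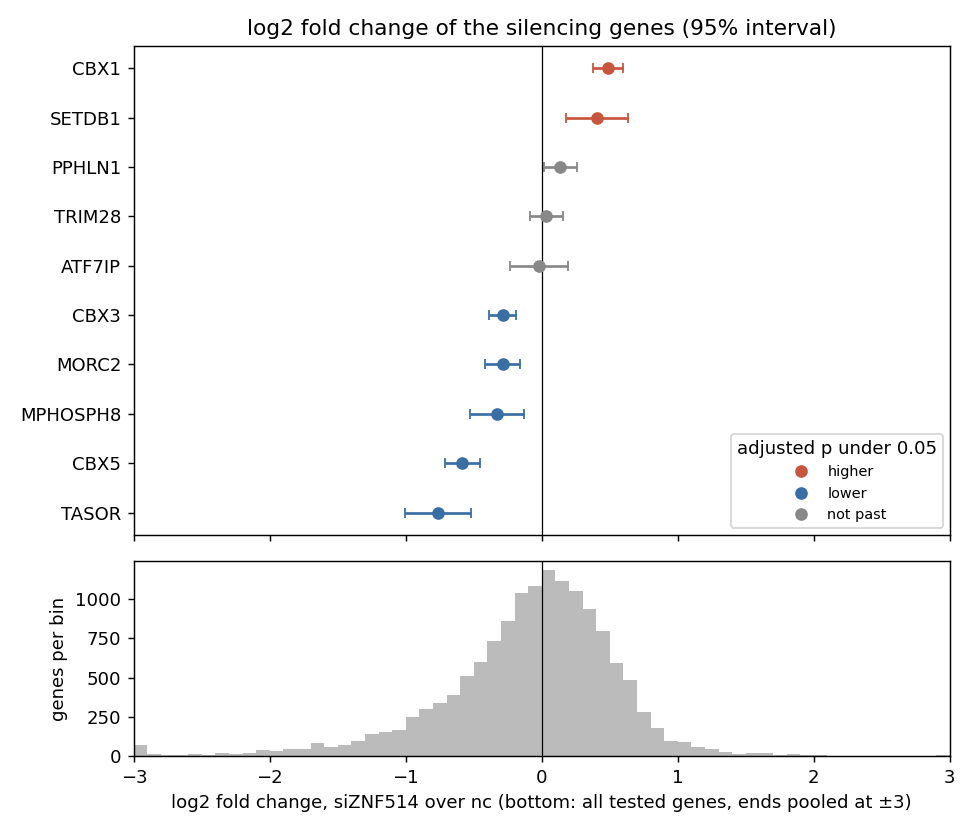
Log2 fold change of siZNF514 over nc (x axis) for the 10 genes with 95% intervals (top) and the number of tested genes per bin of 0.1 (bottom). TASOR (-0.76) and CBX5 (-0.58) lie lowest and CBX1 (0.48) highest, all within the broad spread of all tested genes, of which 5% lay below -1.26 and 5% above 0.75.

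Levels can be compared between genes only per length, and here the length used matters. The lengths behind the deposited FPKM values ran from 3.73 kb for CBX1 to 31.0 kb for ATF7IP, and were 1.48 to 13.8 times the principal transcript in GENCODE 29. On the FPKM scale in nc, CBX1 (46.3 ± 1.44) and TRIM28 (45.1 ± 2.48) were highest and overlapped. CBX3 followed at 29.2 ± 0.388, then CBX5 at 9.58 ± 0.443, MPHOSPH8 at 8.58 ± 0.215, MORC2 at 7.07 ± 0.218, TASOR at 5.65 ± 0.701 and SETDB1 at 4.21 ± 0.440. ATF7IP (3.51 ± 0.101) and PPHLN1 (3.34 ± 0.142) came last and overlapped. In siZNF514, CBX1 at 59.4 ± 2.72 FPKM stood clear of TRIM28 at 42.3 ± 1.45 FPKM, and TASOR was last at 3.05 ± 0.277 FPKM, within the range of ATF7IP. Per principal transcript length, TRIM28 came first in both groups, at 133 ± 7.35 FPKM in nc when recomputed with that length, and PPHLN1 moved from last to place 4, at 46.2 ± 1.96 FPKM. The length of PPHLN1 behind the FPKM was 22.7 kb, against 1.64 kb for its principal transcript.

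Genes that work with these members were taken from 4 lists chosen for their roles. Of 62 symbols 60 were tested, and 17 rose, 15 fell and 28 did not pass, a share of 53.3% called against 50.6% for all tested genes. With total counts alone the split was 11 higher and 23 lower, while all genes then moved by -0.13 at the median and split into 2493 higher and 4775 lower, against 3629 and 3583. The plot of the lists shows each tested gene.

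Among relatives and partners of TRIM28, 3 of 14 tested genes rose, 4 fell and 7 did not pass (median log2 fold change -0.01). SENP7, a protease that trims SUMO chains, was at 17.9, 17.3 and 18.8 CPM in nc and 34.2, 36.6 and 29.7 CPM in siZNF514 and rose (0.89, SE 0.10). TRIM33, of the same TIF1 family as TRIM28, fell (-0.49, SE 0.06), as did the SUMO protease gene SENP1 (-0.48, SE 0.06) and the DNA damage kinase gene ATM (-0.37, SE 0.06), whose product phosphorylates TRIM28. Conjugation of SUMO to TRIM28 is what draws SETDB1 to it. These 4 genes had edgeR adjusted p-values of 0.000324 to 0.00231.

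Among partners of SETDB1, ATF7IP and HUSH, 4 of 11 tested genes rose, 3 fell and 4 did not pass (median 0.02). TASOR2, the paralog of TASOR, was at 275, 277 and 284 CPM in nc and 208, 200.2 and 208 CPM in siZNF514, so that both paralogs fell (-0.44, SE 0.04 for TASOR2). ZCCHC8, of a nuclear RNA decay complex linked to HUSH, fell (-0.51, SE 0.05). MORC3 (0.45, SE 0.06) and MORC4 (0.30, SE 0.05) rose, the direction opposite to that of MORC2. The 4 genes had edgeR adjusted p-values of 0.000109 to 0.00265. MORC1 had no count.

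Of 14 other H3K9 methyltransferase, cofactor and demethylase genes, all tested, 3 rose, 5 fell and 6 did not pass (median -0.14). The demethylase genes on the list split. KDM3A (1.34, SE 0.09), KDM4B (0.88, SE 0.11) and KDM4C (0.66, SE 0.07) rose, while KDM4A (-0.17), KDM4D (-0.67) and PHF8 (-0.43), named here after their values were seen, fell. KDM3B (-0.19) and KDM7A (0.08), also named afterwards, did not pass. The share called on the list was 57.1%, against 50.6% of all tested genes. KDM4C was at 73.3, 64.6 and 72.6 CPM in nc and 113, 104 and 117 CPM in siZNF514. EHMT2, the methyltransferase also called G9a, fell (-0.42, SE 0.09). The edgeR adjusted p-values of KDM3A, KDM4B, KDM4C and EHMT2 ran from 3.91e-05 to 0.00593.

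Of 21 HP1 partners and heterochromatin proteins, all tested, 7 rose, 3 fell and 11 did not pass (median 0.05). CHAMP1, a zinc finger protein that binds HP1 and POGZ, was at 70.3, 64.3 and 66.2 CPM in nc and 32.0, 32.0 and 30.6 CPM in siZNF514. It fell to less than any nc library by a wide margin (-1.08, SE 0.06), more than any of the 10 members. INCENP, a chromosomal passenger protein that binds HP1, rose (0.53, SE 0.06), as did the H4K20 methyltransferase gene KMT5C (0.66, SE 0.09) and the DNA methyltransferase gene DNMT3B (0.69, SE 0.12). The edgeR adjusted p-values of these 4 ran from 2.14e-05 to 0.00242.

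**Figure D5:**
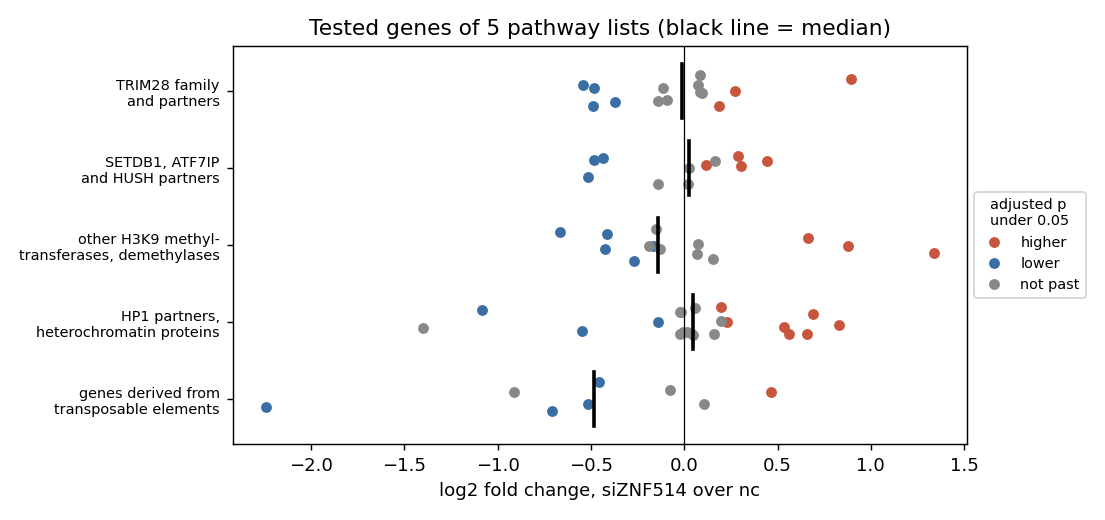
Log2 fold change of siZNF514 over nc (x axis) for the tested genes of 5 lists, coloured by the result of the edgeR test at an adjusted p of 0.05, with the median of each list in black. The medians of the first 4 lists lie between -0.14 and 0.05, and that of genes derived from transposable elements at -0.49.

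Genes derived from transposable elements were counted because elements of this kind are targets of the machinery. Of 24 symbols only 8 had enough counts to test, 4 had none in any library, and of the 8, 4 fell, 1 rose and 3 did not pass (median -0.49, against -0.0092 for all tested genes). The share called was 62.5% of these 8, against 50.6% of all tested genes. Some were low, with PEG10 at a mean of 1.57 CPM and RTL8A at 6.69 CPM in nc, and neither of these passed. Genes with any count numbered 20842 to 21076 in nc libraries and 19384 to 20216 in siZNF514 libraries. Whether the listed genes are themselves targets of the machinery in these cells was not tested. ERVK13-1 was at 13.2, 12.2 and 12.2 CPM in nc and 3.14, 2.53 and 2.27 CPM in siZNF514 and fell (-2.24, SE 0.15, edgeR adjusted p = 4.35e-05). RTL6 (-0.71, SE 0.07) and ERVK3-1 (-0.52, SE 0.10) fell, and PNMA1 rose (0.47, SE 0.07), with edgeR adjusted p-values of 0.000167 to 0.00523. L1TD1, a gene of LINE-1 origin, had 2 counts in all 6 libraries together and was not tested. Reads of repeated sequences can map to several places, so the ERV values are uncertain, and elements outside annotated genes were not analysed here.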

How the data were processed

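RNA sequencing of 6 KYSE-150 libraries (3 nc, 3 siZNF514) was analysed from 1 deposited table. Its count columns hold whole numbers per gene, deposited by the authors with no normalization visible, and its FPKM columns are the authors' values per gene length and library total, per the file headers. HISAT2 2.0.4, StringTie 1.3.3b, edgeR and hg38 are named in the submitters' processing notes, with no role given. The sources used here give no annotation release, strand setting or filter. Whether reads of overlapping genes on opposite strands were kept apart is therefore not known.

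Columns were matched to libraries by title. No 2 libraries of a group agreed within sampling noise (chi-square per degree of freedom 7.43 to 9.69). Genes were filtered by filterByExpr (minimum count 10, minimum total 15), scaled by TMM factors and tested with the quasi-likelihood F test of edgeR 4.0.16 in R 4.3.3, without a replicate term, and p-values were adjusted over all 14250 tested genes (threshold 0.05). SEs are the log2 fold change divided by the square root of F, and 95% intervals use the t quantile. The fit was tried on simulated data with the same dispersion for every gene and few changed genes. The real data differ in both, so that trial does not show how reliable the calls here are. Log2 CPM for differences used a prior count of 2. Shares and differences were tested by exact two-sided permutation over libraries. Alternatives were a replicate block, each library left out, DESeq2 1.42.0 size factors and Wald test, total counts alone, other filters, and limma-trend (limma 3.58.1) on log2(FPKM + 0.1), also at pseudocounts of 1 and 0.01.

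The 10 members and the lists were chosen with earlier results of these data known. From each list the up to 4 genes with the smallest p past the threshold are named, and the 3 genes nearest to TRIM28. Tested neighbours that overlap a member or start within 1000 bases of it on the other strand are named too. The plan covered only such starts, and overlapping genes were added to it. AC020629.1, a tested gene inside PPHLN1, was not described above (0.89, edgeR adjusted p = 0.0678). Neighbours come from the loci and strands of the deposited table, as the RefSeq table used holds no strand. Genes at or near 0 counts, and MORC2-AS1, were named after their values were seen. Promoter windows come from RefSeq (GRCh38.p14), where 9 of 10 members matched by symbol, PPHLN1 by a start far from the deposited one. TRIM28 had no entry. The letters of 8 textbook motifs were searched on both strands and were chosen after the sequences had been read. They were TTTGGCGC and TTTGGCGG for E2F and GCGCATGC for NRF1. The others were GGGCGG for SP1 and CCAAT for its box. The E-box was CACGTG and the ETS form CCGGAAG. The TATA form was TATAAA.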

Additional observations from a re-analysis of the deposited data

How the results depend on the processing

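The 5 members that fell and CBX1 kept their calls and directions under every alternative and without each library in turn. SETDB1 lost its call in the 4 limma-trend fits on FPKM, at adjusted p-values of 0.0621 to 0.0648 and log2 fold changes of 0.23 to 0.28, so that 1 member in place of 2 was higher there. The replicate numbers did not pair the samples (correlations of deviations between same-numbered libraries 0.0075, 0.041 and -0.036), and with the replicate block 2 members rose and 5 fell, among 6640 genes called in place of 7212. Of the genes on the 4 pathway lists, 11 were higher with total counts alone and in limma-trend at each of the 3 pseudocounts, and 10 at a mean FPKM of at least 0.5, in place of 17. With total counts alone 23 were lower in place of 15. In the 4 limma-trend fits 19 to 21 were lower, and 19 with a mean count of at least 50. Leaving out a library gave 14 to 19 higher and 12 to 15 lower.

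Directions that turned were all of genes that did not pass. TRIM28 was at -0.094 with total counts alone, between -0.092 and -0.090 in the limma-trend fits, at -0.0016 with a mean count of at least 50, and between -0.0084 and 0.075 without a library. ATF7IP ranged from -0.072 to 0.089 without a library (0.0038 without nc replicate 3). HNRNPA1 ranged from -0.17 to 0.069 (0.038 without nc replicate 2, 0.019 without nc replicate 3, 0.021 without siZNF514 replicate 3), PRICKLE1 from -0.13 to 0.029, and ZCRB1 was at -0.049 with total counts alone and between -0.048 and -0.046 in the limma-trend fits. The cause was not tested.

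With scales chosen after seeing the data, the change in the share of CBX1 was 14.6 percentage points on counts alone in place of 13.7. That of CBX3 was -5.55 on counts alone and -11.1 per principal transcript length in place of -9.18, and that of CBX5 -9.07 and -2.73 in place of -4.52.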

Other observations

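Many zinc finger genes encode the KRAB proteins that bring TRIM28 to DNA. Of 337 tested genes named ZNF and a number, not all of which encode a KRAB domain, 49 rose, 102 fell and 186 did not pass the edgeR test. The targeted gene ZNF514 is itself among those that fell. The share called was 44.8%, below the 50.6% of all tested genes, of which 25.5% rose and 25.1% fell. The set had a median log2 fold change of -0.16, against -0.0092 for all tested genes. This set was chosen after the data were seen and has no test of its own.

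The promoter windows of the members differed in composition. CBX1 and TASOR had 75% and 75.4% G and C, with 34 and 40 CpG pairs in 280 bases, while SETDB1 had 48.6% and 13. The median over all 35116 windows was 58.2% and 13. CBX5 held 2 E-box strings (CACGTG, in 6.94% of all windows) and SETDB1 1.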
